A study of Mus musculus with 48 samples.

Results

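The expression of 9 complement genes was followed in the colon of 48 male mice over the circadian day. The genes were C1qa, C1qb, C1qc, Cfb, Cfd, C3, Hc, Cfi and Cd55. They were taken by their symbols in GENCODE vM21 and make up 9 of the 55401 genes in the count table. The rule uses no measured value, but earlier results of these data were known when the genes were listed, so no result below is independent of them. Colon tissue was taken from mice on the C57BL/6J background, 18–20 weeks old, on the second day of constant darkness, with chow available at all times and under specific pathogen-free housing. Control mice were littermates carrying floxed Bmal1 alleles without Cre (Bmal1fl/fl × Villin wt/wt). Bmal1IEC-/- mice carried the same floxed alleles with 1 Cre transgene under the Villin promoter (Bmal1fl/fl × Villin CRE/wt), so that the deletion is restricted to intestinal epithelial cells and all other cells of the colon keep the gene. Each genotype had 4 mice at each circadian time (CT), and the 6 times were CT1, CT5 and CT9 in the day and CT13, CT17 and CT21 in the night. Each mouse gave 1 RNA sequencing library. Values are normalized counts, which are the authors' exon read counts divided by the size factors of DESeq2.

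Complement is a cascade of plasma and tissue proteins that marks microbes and damaged cells. C1q, built from the products of C1qa, C1qb and C1qc, recognizes antibody complexes and starts the classical pathway, while factor B (Cfb) and factor D (Cfd, adipsin) build the C3 convertase of the alternative pathway. Both pathways cleave C3, and the cleavage of C5, the product of Hc, starts the membrane attack complex. Factor I (Cfi) degrades C3b, and CD55 on the cell surface takes convertases apart. Most circulating complement comes from the liver, whereas in the gut C1q comes mainly from tissue macrophages, C3 from stromal, epithelial and immune cells, and factor D from adipocytes.

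The 3 C1q genes lie side by side on chromosome 4 of GRCm38, with C1qb at chr4:136880129-136886187, C1qc at chr4:136889804-136893065 and C1qa at chr4:136895917-136898803, all on the minus strand. C3 (chr17:57203970-57228136) and Cfb (chr17:34856374-34862518) are both on the minus strand of chromosome 17. Hc lies on the minus strand of chromosome 2 (chr2:34983331-35061438), Cd55 on the minus strand of chromosome 1 (chr1:130439027-130462744), Cfd on the plus strand of chromosome 10 (chr10:79890853-79892655) and Cfi on the plus strand of chromosome 3 (chr3:129835884-129875332). All 9 are protein-coding genes. Exons of the readthrough gene Gm20547, on the same strand, cover 79.5% of the exonic bases of Cfb, which leaves 579 bases on which a read could be assigned to Cfb alone, so its counts are less certain than those of the other members. Exonic overlap with a gene on the opposite strand was 1.21% for Hc and 2.10% for Cd55, and it was 0 for C3, the C1q genes, Cfd and Cfi.

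RefSeq promoters on GRCm38.p6 were at hand for 6 of the 9 members (Cd55, Hc, C1qb, C1qc, Cfd and C3). The upstream sequences of Hc and C3 are shown because these genes differed between the genotypes at CT1, and that of C1qc because it was the one member window with a searched motif. Each runs 5′ to 3′ on the gene's own strand and ends before the first GENCODE exon. The windows are chr2:35061439-35061662 for Hc (224 bases), chr17:57228137-57228386 for C3 (250 bases) and chr4:136893066-136893164 for C1qc (99 bases). Capitals mark the searched motif.
Hc: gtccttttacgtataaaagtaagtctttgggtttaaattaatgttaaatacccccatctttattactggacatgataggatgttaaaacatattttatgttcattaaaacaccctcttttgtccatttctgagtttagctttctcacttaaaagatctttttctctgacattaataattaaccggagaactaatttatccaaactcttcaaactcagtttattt
C3: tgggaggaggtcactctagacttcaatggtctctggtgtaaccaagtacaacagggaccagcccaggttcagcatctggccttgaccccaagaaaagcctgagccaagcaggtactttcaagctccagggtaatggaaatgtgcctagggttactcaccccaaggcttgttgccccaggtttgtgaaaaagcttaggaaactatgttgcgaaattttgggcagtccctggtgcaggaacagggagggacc
C1qc: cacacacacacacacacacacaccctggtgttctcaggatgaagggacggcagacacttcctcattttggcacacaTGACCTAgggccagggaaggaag
The motifs searched on both strands were the E-box CACGTG, which the BMAL1 and CLOCK pair binds, the D-box letters TTATGCAA and TTATGTAA, and TAGGTCA and TGGGTCA, letters of the sites of ROR and REV-ERB receptors. The E-box occurred in 0 of the 6 member windows and in 6.02% of the 32851 RefSeq promoter windows searched in the same way. TAGGTCA was found in C1qc alone among the members, as TGACCTA on the strand printed, 174 to 168 bases before the RefSeq start, and in 2.23% of all windows. TTATGCAA (0.694% of all windows), TTATGTAA (0.819%) and TGGGTCA (3.24%) were found in none of the members. Over the whole 250 bases before the RefSeq start, Hc was poor in G and C (31.2%), against 52.0% for C3 and 54.0% for C1qc. Of 48 other complement genes 36 had a promoter, with TTATGCAA in C1rb and C9 and TAGGTCA in C6.

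Gene counts summed to 3144997 to 4785844 reads per library, with medians of 3775926 in control and 3891600 in Bmal1IEC-/- mice. A count of 0 allows up to 3 counts at this depth, a floor that covers counting error only. Replicate mice differed by more than counting error, with a chi-square per gene of 1.93 to 14.9 over 72 pairs of mice in the same group. The deleted gene, listed as Arntl, averaged 258 ± 17.9 at CT1 and 26.2 ± 8.74 at CT9 in control mice, and 138 ± 43.2 and 113 ± 30.8 at these times in Bmal1IEC-/- mice (SD, n = 4 each), with cells outside the epithelium included. Without the pair of libraries described next, the Bmal1IEC-/- mean at CT1 was 176 ± 6.74 (SD, n = 2). Epithelial markers (9 of 9 detected past the filter), fibroblast markers (6 of 6) and smooth muscle markers (5 of 5) were present as for whole colon, while 0 of 5 hepatocyte and 0 of 5 neutrophil markers passed the filter on low counts, with Fgb, Ahsg, S100a8, S100a9, Ly6g and Mpo at a median count of 0.

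A pair of Bmal1IEC-/- libraries at CT1, SV384 and SV385, stood apart in their tissue markers, SV385 in several lists and SV384 in the epithelial list alone. In SV385 the summed markers were the lowest of the 48 mice for macrophages (477 against 957–1577 in the 46 mice outside the pair), fibroblasts (939 against 2198–4108) and smooth muscle (3374 against 12007–21461). The epithelial markers of SV385 were the highest (116000 against 59289–87154). SV384 had the second-highest epithelial sum, 93452. Its sums for fibroblasts (3721), macrophages (1469), smooth muscle (12737) and every other list lay within the range of the 46. The authors state that samples of low quality were filtered out, and the labels do not mark which. Every comparison below was made over all 48 mice, and the calls that include CT1 are also given over the 46, with 2 Bmal1IEC-/- mice left at CT1. Levels, values per 1000 marker counts and the choice of the most alike genes are over all 48 mice unless stated.

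Between genes, levels were compared per kilobase of exon, as medians of normalized counts over the 48 mice. C1qb and C1qa had the highest levels, 108 and 104.8 per kilobase, followed by 59.4 for C3, 54.1 for Cfd, 43.0 for C1qc and 30.1 for Cd55. Cfb followed with 5.17, or 25.2 per kilobase when only the exonic bases it does not share were counted as its length. Hc had 1.94 and Cfi 0.387. C1qa and C1qb could not be told apart within their spread, since their normalized counts ran from 47.1 to 153 and from 41.7 to 173 on exons of 1040 and 1088 bases. Cfd spanned the whole order, from 0 to 711 normalized counts.

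**Figure D1:**
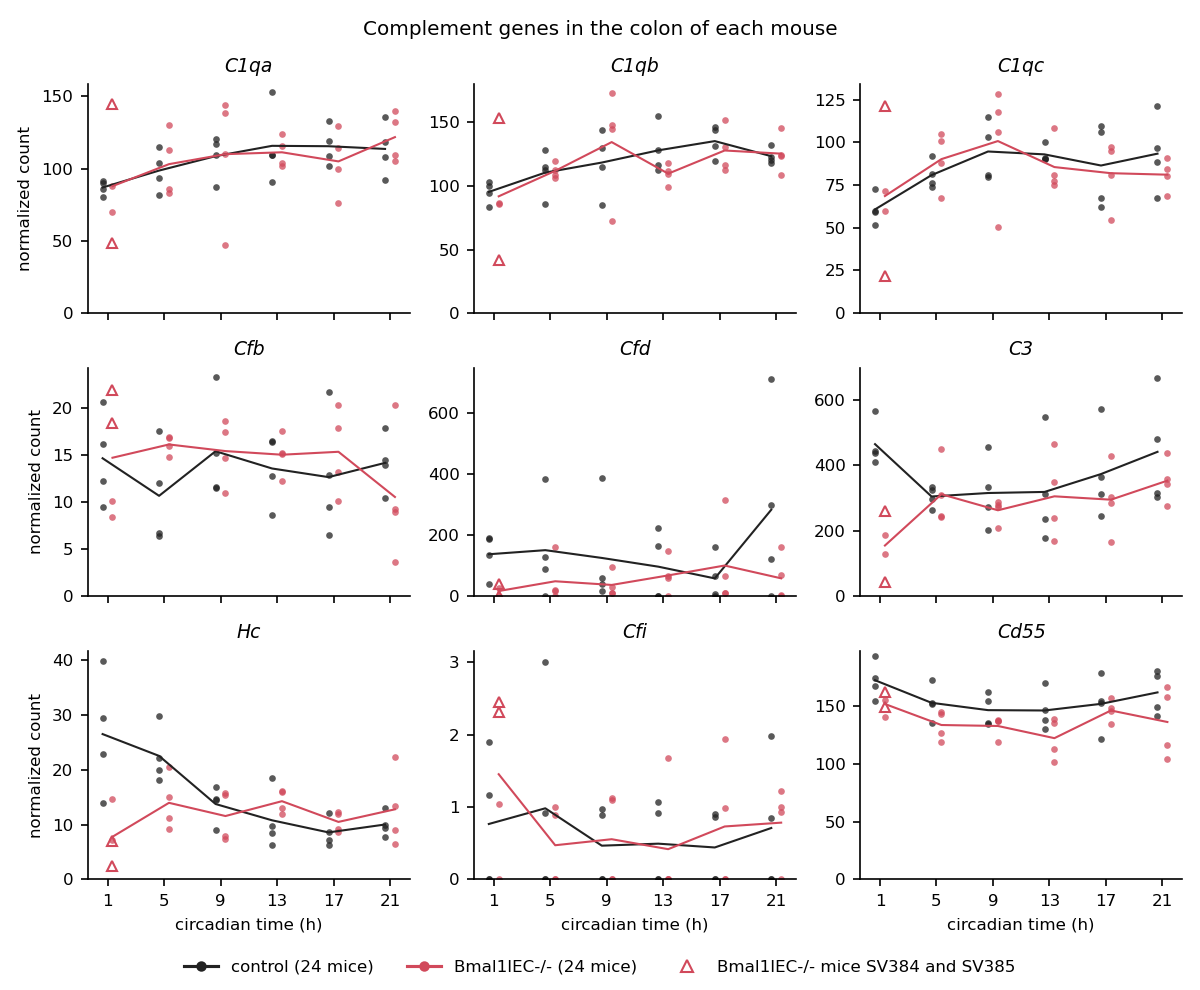
Normalized counts (y axis, from 0, own scale for each gene) of the 9 complement genes at 6 circadian times (x axis, h), 1 point per mouse, with lines through the means of the 4 mice of a group. Control mice are black, Bmal1IEC-/- mice red, and open triangles are SV384 and SV385. The control values of Hc fall from 13.9–39.9 at CT1 to 6.32–12.1 at CT17, the genotypes of C3 separate at CT1 alone, and Cfd varies from 0 to 711 counts between mice.

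Over all circadian times no member passed both thresholds used for a genotype difference, an adjusted p under 0.05 and a fold change over 1.5 (edgeR's quasi-likelihood test with time in the model, Benjamini-Hochberg adjustment over 14259 genes). Of all genes tested, 1.3% passed both. DESeq2 called 0 members as well, and at an unadjusted p under 0.05 edgeR had 3 members, Cd55, C3 and Cfd. Cfi had too few reads to be tested, so 8 of the 9 members were. By the adjusted p alone, Cd55 was lower in Bmal1IEC-/- mice, as were 5.98% of all genes tested, and 0 members were higher, against 6.1% of all genes. The median log2 fold change over the 8 members was -0.10, with 7 of 8 below 0, and over all genes it was -0.0024. Those below 0 included the C1q genes, whose differences were near 0 and whose signs were not stable. The share of all genes below 0 was not counted.

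The C1q genes, which start the classical pathway, had nearly equal levels in both genotypes. C1qa had 107 ± 18.2 normalized counts in control and 107 ± 27.8 in Bmal1IEC-/- mice, C1qb 119 ± 19.5 and 117 ± 28.6, and C1qc 84.9 ± 18.7 and 84.7 ± 24.6 (SD, n = 24 each). The genotype differences on the log2 scale were -0.0046 for C1qa (standard error 0.088, adjusted p = 0.983), -0.025 for C1qb (0.080, adjusted p = 0.877) and -0.0032 for C1qc (0.10, adjusted p = 0.991, edgeR's quasi-likelihood test). Over the 46 mice they were -0.016 (adjusted p = 0.935), -0.027 (0.852) and -0.014 (0.951, edgeR). Their signs were not stable, as leaving out single mice turned each of them. The 3 genes moved together from mouse to mouse, with Pearson r between their log2 CPM of 0.79 to 0.86 over the 48 mice and 0.71 to 0.82 over the 46.

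In control mice the C1q genes were lowest at CT1. C1qc averaged 60.8 ± 8.77 at CT1 and 80.9 to 94.7 at the other times, and C1qa 87.0 ± 4.88 at CT1 and 98.7 to 116 later (SD, n = 4 each). C1qb averaged 95.4 ± 8.59 at CT1 and 135 ± 12.5 at CT17 (SD, n = 4 each). The C1q means of Bmal1IEC-/- mice were also lowest at CT1. C1qa averaged 87.9 there and 103 to 122 at the other times, C1qb 91.9 and 110 to 135, and C1qc 68.6 and 81.1 to 101. These Bmal1IEC-/- mice at CT1 spread widely, with C1qb from 41.7 to 153. Without SV384 and SV385 the CT1 means were 79.2, 86.3 and 65.5 (n = 2), still the lowest. JTK_cycle, a rank test for a 24-h rhythm with an exact null distribution, called C1qb (p = 0.0254) and C1qa (p = 0.0497) rhythmic in the 24 control mice, both with a peak at 14 h, and gave p = 0.107 for C1qc with the same peak. This test called 24.0% of all 32527 genes with a count in control mice, and with a false discovery rate over all genes neither was called (q = 0.124 for C1qb and 0.207 for C1qa). The call of C1qa was lost when any of 13 of the 24 control mice was left out, and that of C1qb with 5 of 24, namely each of the 4 control mice at CT1 and SV424 at CT13. In Bmal1IEC-/- mice the exact JTK_cycle test gave p = 1 for C1qa and C1qb and 0.750 for C1qc, and the difference in rhythm between the genotypes was not called for C1qa (adjusted p = 0.948), C1qb (0.921) or C1qc (0.799; edgeR's F test on a cosine of 24 h that may differ by genotype). Over the 46 mice the change was not called for C1qa, C1qb or C1qc either (adjusted p = 0.956, 0.911 and 0.805, edgeR).

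The summed macrophage markers (10 of 11 passed the filter, none at a median of 0) ran from 1145 to 1577 in control mice and from 477 to 1502 in Bmal1IEC-/- mice, or 957 to 1502 without the pair. Over the 48 mice their log values followed those of the C1q genes with r of 0.68 for C1qa, 0.72 for C1qb and 0.71 for C1qc, and over the 46 with 0.57, 0.48 and 0.44. As library composition is shared by all points, these are descriptions. Per 1000 macrophage marker counts, C1qb had 90.6 ± 14.9 counts in control and 95.1 ± 15.1 in Bmal1IEC-/- mice over all times (SD, n = 24 each). At CT1 C1qb had 73.0 ± 4.21 and 90.6 ± 9.48 on this scale. The macrophage sum itself was 1305 ± 51.1 in control and 993 ± 407 in Bmal1IEC-/- mice at CT1 (SD, n = 4 each). The genes most like the C1q genes over the 48 mice were, beside each other, Tmem119 (r = 0.84 with C1qa, 0.86 with C1qb and 0.88 with C1qc), Apoe (0.83 with C1qa), which encodes a lipoprotein that macrophages make, and Cd74 (0.82 with C1qc), the invariant chain of MHC class II.

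Of the alternative pathway genes, Cfb was low and was not called rhythmic in either genotype by the exact JTK_cycle test. It had 13.5 ± 4.68 normalized counts in control and 14.6 ± 4.53 in Bmal1IEC-/- mice (SD, n = 24 each), a log2 difference of 0.09 (standard error 0.14, adjusted p = 0.735, edgeR), and 0.04 over the 46 mice (adjusted p = 0.917). Group means ran from 10.7 at CT5 to 15.4 at CT9 in control mice and from 10.6 at CT21 to 16.2 at CT5 in Bmal1IEC-/- mice. The amplitude of a 24-h cosine fitted to log2 CPM was 0.036 ± 0.14 (standard error) in control mice. In Bmal1IEC-/- mice the amplitude was 0.24 ± 0.13, and 0.33 ± 0.13 over the 22 without the pair. The most alike gene was Saa1, an acute phase gene (r = 0.56), followed by Uqcc3 and Zfp628 at the same r to 2 decimals.

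Cfd, the serine protease of the alternative pathway, varied most. Control mice had 0 to 711 normalized counts with a median of 106 and Bmal1IEC-/- mice 0 to 316 with a median of 23.3 (n = 24 each), with 2 mice of each genotype at 0. At CT1 the 4 control mice had 39.9, 133, 186 and 191, and the 4 Bmal1IEC-/- mice 0 (SV385), 1.05, 27.5 and 40.5 (SV384). The highest Bmal1IEC-/- mouse overlapped with the lowest control mouse. At CT21 control mice had 0, 122, 298 and 711, against 0.996, 5.10, 69.4 and 159 in Bmal1IEC-/- mice. The log2 difference over all times was -1.32 (standard error 0.52, adjusted p = 0.0842, edgeR) and -1.23 over the 46 mice (adjusted p = 0.127). In the day it was -1.98 (standard error 0.74, adjusted p = 0.0860, and 0.212 over the 46 mice) and in the night -0.95 (0.67, adjusted p = 0.576, edgeR). Without the Bmal1IEC-/- CT17 mouse SV481, which had 316, Cfd passed both thresholds (adjusted p = 0.0219).

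Cfd followed the adipocyte content of the sample more closely than any other member followed a marker list. The summed adipocyte markers (7 of 8 passed the filter, none at a median of 0) ran from 142 to 1350 in control mice with a median of 379.7 and from 129 to 1138 in Bmal1IEC-/- mice with a median of 197. Their log values correlated with those of Cfd with r = 0.89 over both 48 and 46 mice. The 3 genes of all tested most like Cfd were Car3 (r = 0.98), Adipoq, which encodes adiponectin (0.97), and the lipid droplet gene Plin1 (0.95), all adipocyte genes. Per 1000 adipocyte marker counts Cfd had 231 ± 168 in control and 143 ± 117 in Bmal1IEC-/- mice (SD, n = 24 each). In the mice at 0 counts of Cfd the adipocyte sum was still 131 (SV385), 142 (SV398), 146 (SV448) and 174 (SV441). The ratio is therefore not a level of Cfd per adipocyte. In tissue, fewer cells of a type and less RNA per cell cannot be told apart, here and for all other members. The part of adipocyte content in the genotype values of Cfd was not tested.

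**Figure D2:**
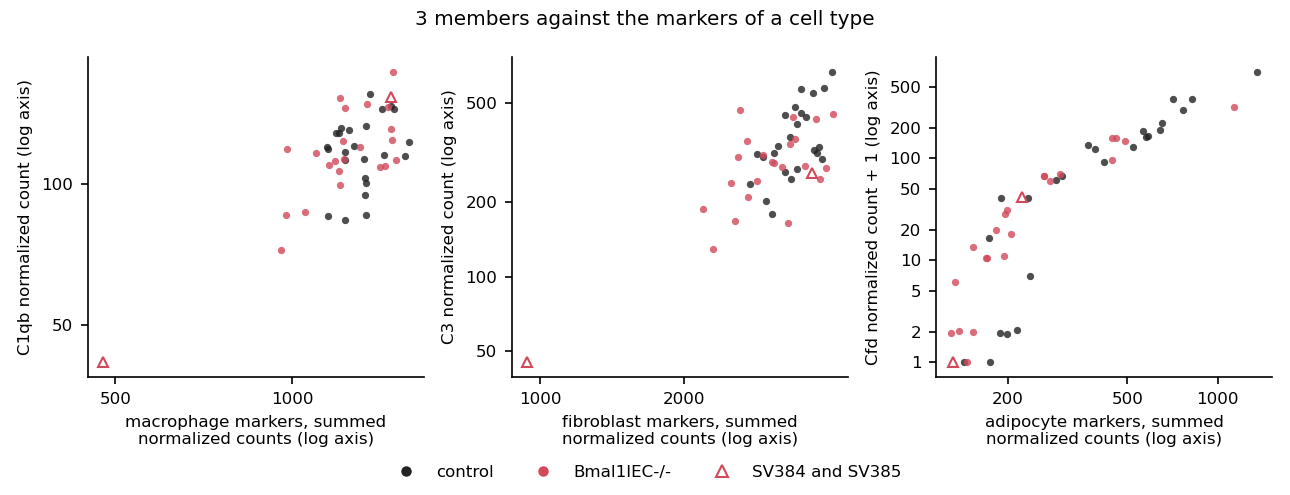
C1qb, C3 and Cfd in each of the 48 mice (y axes, normalized counts, Cfd with 1 added, log axes) against the summed normalized counts of macrophage, fibroblast and adipocyte markers (x axes, log axes). Control mice are black, Bmal1IEC-/- mice red and open triangles SV384 and SV385; Cfd tracks the adipocyte sum in both genotypes, and SV385 lies at the low end of C1qb and C3 and of their markers.

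C3, the central component, was lower in Bmal1IEC-/- mice at CT1. Control mice at CT1 had 411, 437, 444 and 566 normalized counts, and Bmal1IEC-/- mice had 45.1 (SV385), 128, 187 and 260.0 (SV384). Every Bmal1IEC-/- mouse lay below every control mouse at this time, a separation that 8.45% of all genes tested showed in this direction at CT1. The log2 difference was -1.59 (standard error 0.35, adjusted p = 0.00103, edgeR), a level 3.01-fold lower. Over the 46 mice it was -1.56 (standard error 0.40, adjusted p = 0.0366, edgeR), and leaving out each of the 8 CT1 mice in turn it stayed called in 8 of 8, between -1.94 and -1.28. At CT1 7.15% of all genes passed both thresholds with lower values in Bmal1IEC-/- mice, and 0.497% over the 46 mice.

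At the other times the C3 groups overlapped. At CT5 control mice had 263, 298, 324 and 334 and Bmal1IEC-/- mice 242, 246, 309 and 448. At CT21 control mice had 302, 314, 481 and 667, and Bmal1IEC-/- mice 276, 342, 357 and 437. The log2 differences at CT5 to CT21 lay between -0.35 at CT17 and 0.03 at CT5, none of them called. Over all times the difference was -0.41 (standard error 0.15, adjusted p = 0.0629, edgeR), with medians of 328 in control and 277 in Bmal1IEC-/- mice, and it was -0.33 over the 46 mice (adjusted p = 0.119). Whether the C3 difference varied with time was tested with circadian time as 6 levels and was not called (adjusted p = 0.168, and 0.502 over the 46 mice, edgeR's F test), so the larger difference at CT1 was not shown to differ from those at other times. The exact JTK_cycle test called no rhythm of C3 in control (p = 0.186) or Bmal1IEC-/- mice (p = 1).

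Marker lists moved with C3 at CT1. The fibroblast sum (6 of 6 genes passed the filter, none at a median of 0) was 3255 to 3604 in control mice at CT1 and 939 to 3721 in Bmal1IEC-/- mice, or 2198 and 2307 without the pair. The macrophage sum was 1229 to 1333 in control mice at CT1 and 477 to 1469 in Bmal1IEC-/- mice, and the mesothelium sum (3 of 3 genes) 45.2 to 97.2 and 2.31 to 39.2, with no overlap. The smooth muscle sum (5 of 5 genes) was 16080 to 21153 in control mice at CT1 and 3374 to 14633 in Bmal1IEC-/- mice, and the epithelial sum (9 of 9 genes) 59289 to 76979 and 80696 to 116000. Neither of these sums overlapped between the genotypes at CT1, with or without the pair. Per 1000 fibroblast marker counts at CT1, C3 had 119 to 160 counts in control mice and 48.1 to 84.9 in Bmal1IEC-/- mice. C3 was put on the scale of this list alone, not on that of mesothelium, whose r with C3 was highest over the 46 mice. How many of all genes separate on this scale was not counted. Over the 48 mice C3 correlated with the fibroblast (r = 0.76), macrophage (0.75) and mesothelium sums (0.71), and over the 46 with r of 0.58, 0.58 and 0.69. With the smooth muscle sum r was 0.65 over 48 and 0.28 over 46 mice, and with the epithelial sum -0.55 and -0.29. The genes most like C3 were Dcn (r = 0.81), the fibroblast proteoglycan decorin, Cav1 (0.81), which encodes caveolin-1, and the amine oxidase gene Aoc3 (0.81). At CT1, 3 of the 6 fibroblast markers were called lower in Bmal1IEC-/- mice, beside 7.15% of all genes (edgeR). Over the 46 mice 2 were, beside 0.497%, namely Dcn at -0.91 and Lum at -0.82, while Col1a1 was at -0.16. The share of these markers in the CT1 difference was not tested.

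Hc, which encodes C5, was the one member with a strong 24-h rhythm, and the 1 member called for a difference in rhythm between the genotypes over the 48 mice. In control mice at CT1 it had 13.9, 22.9, 29.5 and 39.9 normalized counts, at CT5 18.1, 20.1, 22.2 and 29.9 and at CT9 8.96, 14.6, 14.7 and 16.9. In the night the control values were 6.39, 8.53, 9.70 and 18.6 at CT13, 6.32, 7.24, 8.74 and 12.1 at CT17 and 7.70, 9.46, 9.94 and 13.1 at CT21. Every control mouse at CT1 and CT5 thus lay above every control mouse at CT17 and CT21. How many of all genes separate between these times was not counted.

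Bmal1IEC-/- mice did not show this course. They had 2.45 (SV384), 6.94 (SV385), 7.13 and 14.7 normalized counts of Hc at CT1, 9.29, 11.2, 15.0 and 20.5 at CT5, and 7.32, 7.87, 15.3 and 15.8 at CT9. In the night they had 11.99, 13.1, 15.9 and 16.2 at CT13, 8.71, 9.21, 11.9 and 12.2 at CT17, and 6.49, 8.96, 13.4 and 22.4 at CT21. The genotypes overlapped at every circadian time, at CT1 by the 14.7 of 1 Bmal1IEC-/- mouse and the 13.9 of 1 control mouse.

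The study reported from these data that Hc lost its rhythm in Bmal1IEC-/- mice, and this was known when the members were chosen. All p-values on the course of Hc over time and on its differences between the genotypes are therefore descriptions (exact JTK_cycle p = 0.00015 in control mice, q = 0.00269, peak at 4 h). A 24-h cosine fitted to log2 CPM gave an amplitude of 0.70 ± 0.12 (standard error) in control mice, a peak-to-trough ratio of 2.65-fold and a peak at 3.78 ± 0.67 h. In Bmal1IEC-/- mice the amplitude was 0.24 ± 0.15 over 24 mice and 0.087 ± 0.13 over 22, and the exact JTK_cycle test gave p = 0.491 and 1. No member was called rhythmic in Bmal1IEC-/- mice, where 14.2% of all genes were. The test of the change in rhythm gave adjusted p = 0.0399 for Hc (edgeR's F test on the cosine and sine interaction), as called for 1.95% of all genes. It was not called over the 46 mice (adjusted p = 0.132, with 0.94% of all genes called), nor in 17 of 48 fits that left out 1 mouse, whose adjusted p reached 0.0945. With circadian time as 6 levels in place of the cosine, the adjusted p was 0.0356, and 0.359 over the 46 mice. The 17 mice included SV384 and SV385, but also 15 others of both genotypes, taken at CT1, CT5, CT13 and CT17.

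**Figure D3:**
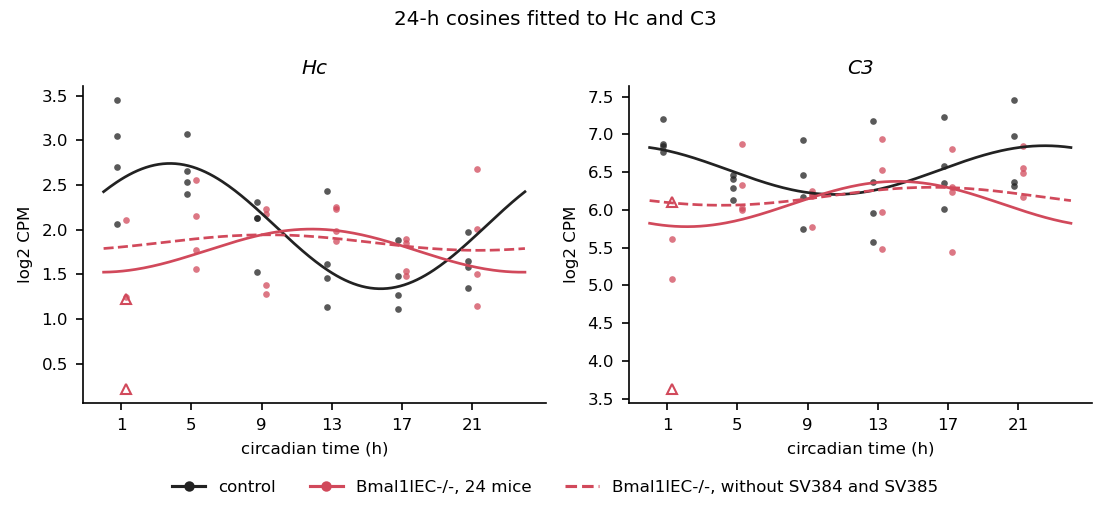
Hc and C3 in each mouse (log2 CPM, y axis) against circadian time (h, x axis), with the 24-h cosine fitted to each genotype. Black is control, red Bmal1IEC-/-, the dashed line leaves out SV384 and SV385 (open triangles). The Hc curve of control mice peaks at 3.78 h with an amplitude of 0.70, while the Bmal1IEC-/- curves have lower amplitudes of 0.24 and, dashed, 0.087.

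The day difference of Hc was also called without that pair. Over CT1, CT5 and CT9 together Hc was lower in Bmal1IEC-/- mice by a log2 difference of -0.90 (standard error 0.22, adjusted p = 0.00801, edgeR), a level 1.87-fold lower, and by -0.76 over the 46 mice (standard error 0.21, adjusted p = 0.0391). It was called in 48 of 48 fits that left out 1 mouse. The model holds period but no circadian time. Over the 46 mice, CT1, where control Hc was highest, therefore had 2 Bmal1IEC-/- mice against 4 control mice. Hc was the 1 member called in the day, with 0.785% of all genes lower, or 0.394% over the 46 mice. In the night the Hc difference was 0.35 (standard error 0.23, adjusted p = 0.543, edgeR), no member was called by edgeR or DESeq2 (1 at an unadjusted p under 0.05, Cd55, in edgeR) and 1.19% of all genes were. The difference between day and night was 1.25 (standard error 0.32), with an adjusted p of 0.0834 over 48 and 0.195 over 46 mice (edgeR), so Hc was not called, and 0.126% of all genes were. Hc was the 1 member with an unadjusted p under 0.05 in this test, and DESeq2 called 0 members. Within control mice Hc was lower in the night than in the day (log2 difference -1.09, adjusted p = 0.000114, edgeR), and within Bmal1IEC-/- mice the difference was 0.16 (adjusted p = 0.7004), or 0.013 over the 46 mice (0.978).

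At single times Hc was called lower at CT1 alone, by a log2 difference of -1.74 (standard error 0.37, adjusted p = 0.000783, edgeR), a 3.34-fold lower level. Over the 46 mice the difference was -1.29 (standard error 0.42, adjusted p = 0.103) and no longer called, although leaving out each CT1 mouse singly kept the call in 8 of 8 fits, between -2.22 and -1.46. The log2 difference was -0.69 at CT5, -0.28 at CT9, 0.40 at CT13, 0.27 at CT17 and 0.33 at CT21. The marker sums given for C3 at CT1 apply to Hc too. By the adjusted p at CT1, 7 of 9 epithelial markers were higher in Bmal1IEC-/- mice and 1 lower, or 1 higher and 0 lower over the 46 mice (edgeR), and their part in the Hc difference was not tested. No member was called at these 5 times by edgeR or DESeq2, with 3 values at an unadjusted p under 0.05 in edgeR (Hc at CT5 and Cd55 at CT13 and CT21), where 0.295% (CT5), 0.933% (CT9), 2.11% (CT13), 0.624% (CT17) and 0.231% (CT21) of all genes were.

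Hc counts were low, 663 reads over the 48 mice, so a single mouse rests on a few reads (2 in SV384 and 6 in SV385). None of the marker lists followed Hc closely, with the highest r at 0.31 for mesothelium over 48 mice and 0.34 over 46. The hepatocyte sum, the list of the main known source of C5, had r = 0.016. As 0 of its 5 markers passed the filter on low counts, this r cannot speak to a source. The most alike genes were Meaf6, which encodes a subunit of histone acetyltransferase complexes (r = 0.74), Rnf32 (0.72) and AI838599 (0.72).

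**Figure D4:**
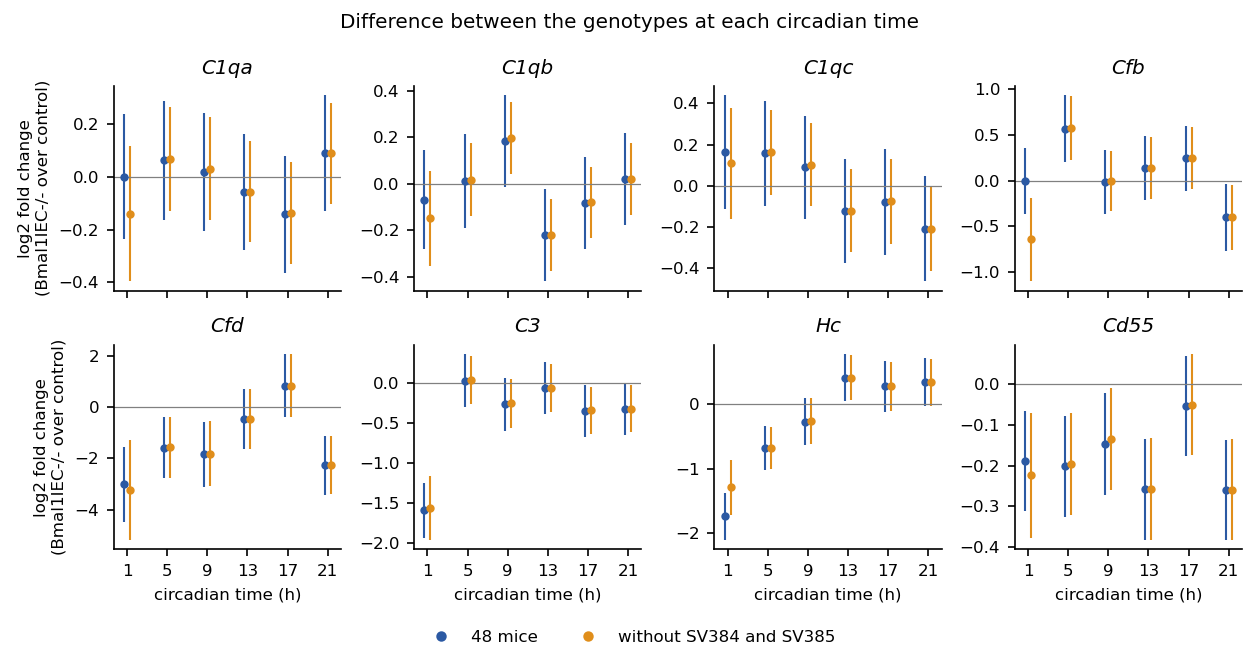
Log2 fold change of Bmal1IEC-/- over control (y axis, own scale for each gene) at each circadian time (x axis, h) for the 8 members tested, with bars of 1 standard error from edgeR. Blue is all 48 mice and orange leaves out SV384 and SV385; C3 lies at -1.59 at CT1 and between -0.35 and 0.03 later, Hc moves from -1.74 at CT1 to 0.40 at CT13, and Cd55 is below 0 at all 6 times.

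Among the regulators, Cfi was close to undetected. It had 33 reads over all 48 mice, with 23 mice at 0 and the highest mouse at 3.01 normalized counts, and no fold is given because both genotypes lay at the floor of 3 counts per library.

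Cd55, which protects host cells from convertases on their surface, was slightly lower in Bmal1IEC-/- mice over all times. Control mice had 122 to 193 normalized counts with a median of 154, and Bmal1IEC-/- mice 102 to 167 with a median of 138 (n = 24 each). The ranges overlapped widely. The log2 difference was -0.18 (standard error 0.049, adjusted p = 0.00859, edgeR), a 1.14-fold lower level, and over the 46 mice it was the same (adjusted p = 0.0120). The mean was lower at 6 of 6 times, from 172 ± 16.1 against 152 ± 9.04 at CT1 to 162 ± 19.2 against 136 ± 30.9 at CT21 (SD, n = 4 each), with no single time called. The exact JTK_cycle test called no rhythm of Cd55 in control (p = 0.212) or Bmal1IEC-/- mice (p = 0.107). The epithelial sum ran from 59289 to 87154 in control mice and from 65434 to 86832 in Bmal1IEC-/- mice without the pair, and Cd55 did not follow it (r = 0.076 over 48 mice and -0.013 over 46). The genes most like Cd55 were Iyd (r = 0.65), Rida (0.61) and the surface glycoprotein gene Cd24a (0.61).

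Other complement genes were taken from a list of 48, of which 27 passed the filter on low counts. Over all times 23 of these 27 had a log2 difference below 0, with a median of -0.15 against -0.0024 over all genes. By the adjusted p alone, 3 were lower in Bmal1IEC-/- mice, namely Cd59a at -0.29, the inhibitor of the membrane attack complex (adjusted p = 0.00679), Cd93 at -0.28 (0.0126) and the collectin gene Colec10 at -0.33 (0.0340, lost without any of 8 single mice), and C1qbp was higher at 0.18 (0.0147; edgeR's quasi-likelihood test). Of all genes 5.98% were lower and 6.1% higher. Over the 46 mice 4 of 28 were lower, these 3 and Colec12 (adjusted p = 0.0333), and C1qbp was higher (0.0214, edgeR). None of the 27 passed the 1.5-fold threshold. Over all times marker lists lay below 0 as well, with medians of -0.14 for fibroblasts (6 of 6 genes below 0) and -0.25 for smooth muscle (5 of 5). The median was -0.11 for macrophages (8 of 10 below 0) and 0.04 for epithelium (2 of 9). Their part in the shift of the complement genes was not tested, and the share of all genes below 0 was not counted. Of the regulators and receptors of the members, Cd46, a cofactor of factor I, was at -0.26 (adjusted p = 0.271), Cr1l at 0.03 (0.6995), the C3a receptor C3ar1 at -0.16 (0.433) and the C5a receptor C5ar1 at 0.07 (0.831, edgeR).

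At CT1, 8 of the 27 were called lower, beside 7.15% of all genes, and none higher, with a median log2 difference of -0.49 over the list and -0.024 over all genes. Among them were Cd46 at -1.34, C7 at -1.30, a component of the membrane attack complex, C3ar1 at -0.84, Cd93 at -0.73, the C1 proteases C1ra at -0.72 and C1s1 at -0.65, and Colec12 at -0.60. Over the 46 mice 1 of 28 was called lower by edgeR, beside 0.497% of all genes, and none of these 7 was. C7, C1ra and C1s1 kept values of -1.26, -0.88 and -0.60 there, close to those over 48 mice, while C3ar1 moved to -0.29. Without SV385 alone Cd46 stayed called, at -1.15, and the other 6 named did not, at -0.31 for Colec12 to -0.89 for C7. C3ar1, C1ra, C7 and Colec12 also lost their calls without some of the other CT1 mice. The fibroblast and macrophage sums at CT1 given for C3 apply to these genes too, and their part was not tested.

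In control mice 9 of 45 listed genes with a count were called rhythmic by the exact JTK_cycle test, namely Cr1l (p = 0.000935, peak at 6 h), Itgax (0.000935, 8 h), Cd59a (0.0102, 4 h), C9, Colec12, Cpn1, Vtn, C3ar1 and Cd93. Cr1l, the rodent regulator of C3b also called Crry, was also called in Bmal1IEC-/- mice (exact p = 0.0015, peak at 8 h), as was Cfp, which encodes properdin (p = 0.0358). Without SV384 and SV385, Cr1l stayed called in Bmal1IEC-/- mice (exact p = 0.00568), Cfp did not (0.0560), and Cd59a (0.00123, peak at 2 h) and Cd46 (0.0386) were called. The share of 9 in 45 lies below the 24.0% of all genes. No listed gene was called for a change in rhythm (edgeR, 2 at an unadjusted p under 0.05, Cpn1 and Cr1l), so Hc was the 1 complement gene of both lists with such a call over 48 mice. The change of Hc was known when the members were chosen.

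**Figure D5:**
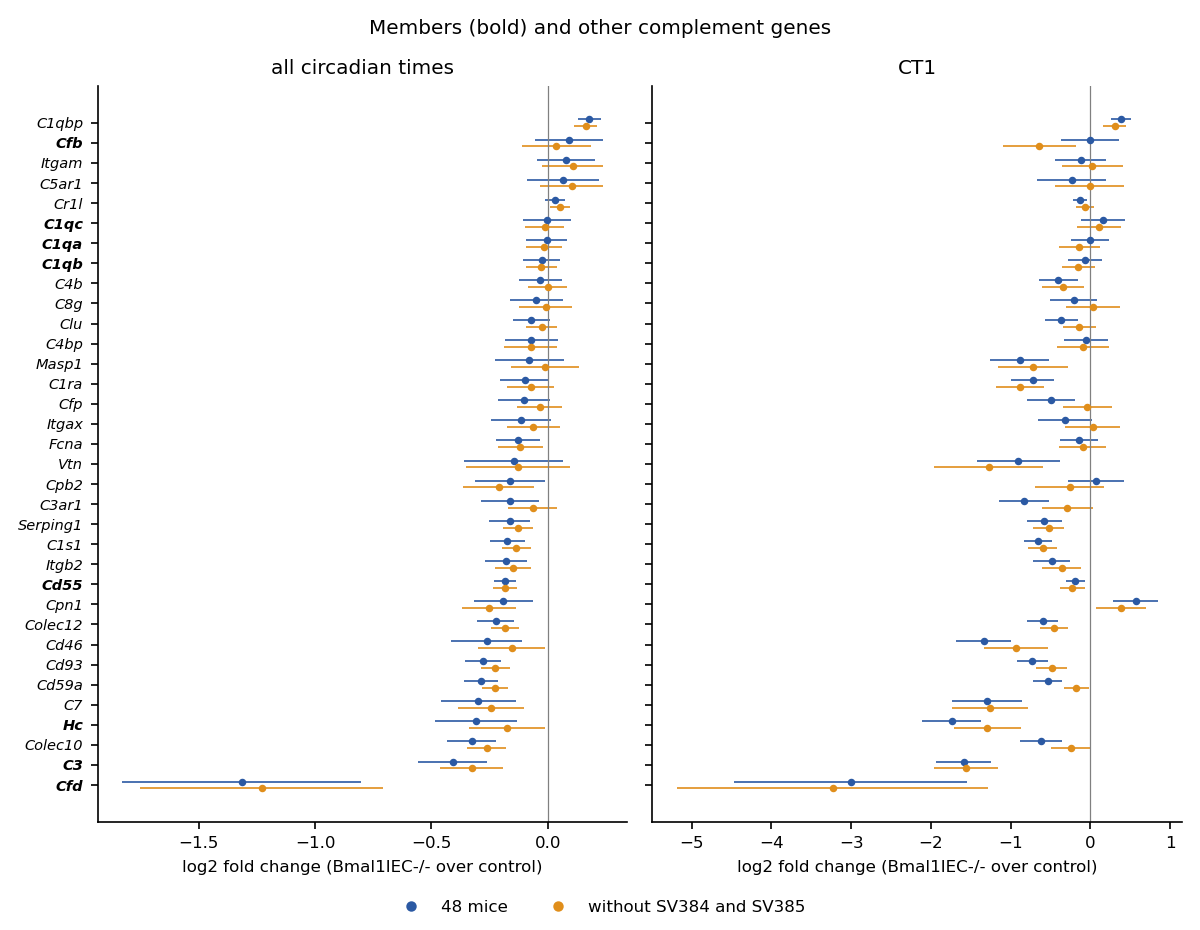
Log2 fold change of Bmal1IEC-/- over control (x axis, bars of 1 standard error, edgeR) over all circadian times (left) and at CT1 (right) for the members (bold) and the other complement genes shown. Blue is all 48 mice and orange leaves out SV384 and SV385. Most genes lie left of 0 in both panels, and at CT1 Cfd, Hc and C3 lie farthest left, at -3.01, -1.74 and -1.59. Of these, Cfd was not called at CT1 and its groups overlapped.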

How the data were processed

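Per the study's methods and the submitters' processing notes, the authors trimmed reads with Trimmomatic 0.39, aligned them to mm10 with STAR 2.7.5c and counted exon reads with featureCounts 1.4.6, leaving out reads that overlapped several features. The deposited values are whole-number read counts per gene, without normalization, for 48 mice. Whether counting used strand is not given in the sources used here, and the labels give no batch. Members and lists, and the pair of libraries left out in alternative fits, were chosen with earlier results of these data known.

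Symbols came from GENCODE vM21 (55141 of 55401 identifiers). edgeR 4.0.16 (filterByExpr, TMM, quasi-likelihood F test, Benjamini-Hochberg adjustment) tested 14259 genes, and a genotype difference was called at an adjusted p under 0.05 with a fold change over 1.5. JTK_cycle was written anew (period of 24 h, exact null, p under 0.05 after adjustment for 12 phases spaced 2 h apart) and run on counts divided by DESeq2 1.42.0 size factors. Cosines were fitted by least squares to log2 CPM. Tests were checked on simulated data. Work was done in Python 3.11.15 (scipy 1.17.1, pandas 2.3.3, numpy 2.4.6, matplotlib 3.10.9) and R 4.3.3. Correlations are between log2 values.

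The named genes are the 9 members, the listed complement genes that a test called, the receptors and regulators of the members, and the 3 genes most correlated with each member. 1 listed gene is not reported here by name. Marker lists were fixed for macrophages, epithelium, adipocytes, fibroblasts, smooth muscle, hepatocytes, follicular B cells (1 of 5 passed the filter, Fcer2a and Pax5 at a median of 0), neutrophils, red cells (3 of 4 passed) and mesothelium. The mice of a group are separate animals, and replicate codes name mice and do not pair them.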

Additional observations from a re-analysis of the deposited data

Results flagged for a closer look

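Of 108 groups of 4 mice (9 members, 6 circadian times, both genotypes), 5 held 1 mouse whose distance to the nearest other mouse, as a share of the group's whole range, exceeded Dixon's critical value at the 95% level for 4 values, and chance alone flags about 1 in 20 groups. C1qc in the control CT13 mouse SV397 was 100.2 normalized counts against 90.3 to 91.0 in the other 3 (0.932 of the range). Cfd in the control CT9 mouse SV420 was 385 against 15.8 to 60.3 (0.880), and in the Bmal1IEC-/- CT5 mouse SV439 it was 159.6 against 0.929 to 19.0 (0.886). Cfi in the Bmal1IEC-/- CT13 mouse SV449 was 1.67 against 0 in the others (1.0), under the floor of 3 counts. Cd55 in the Bmal1IEC-/- CT9 mouse SV410 was 119 against 137 to 138 (0.962). The rhythm of Hc differed between the genotypes by the test of the difference itself (edgeR's F test, adjusted p = 0.0399), and not over the 46 mice without SV384 and SV385 (0.132). The study had reported the loss of this rhythm from the same data.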

How the results depend on the processing

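No paired analysis was possible because the replicate codes name single mice and are shared by no 2 groups. Of 362 values under alternative settings for 65 results, 285 kept their direction and side of the threshold, or their count within 1.5 times. Without SV384 and SV385, members called at CT1 went from 2 to 1 and all genes from 1663 to 141, all genes called in the day from 187 to 114 and for the interaction with period from 18 to 10, members called for a change of rhythm from 1 to 0 (0 also with time as 6 levels) and all genes from 278 to 136, and the amplitude of Hc in Bmal1IEC-/- mice to 0.087. Leaving out the pair, the CT1 differences over 4 against 2 mice rest on a spread shared with the other groups.

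With no filter on low counts 1 member (Cfd) passed both thresholds, 3 members passed by the adjusted p and 302 genes in all were called. The test against a 1.5-fold change itself called 0 members and 42 genes (185 in the model as reported). DESeq2 called 71 genes for the interaction with period and 456 for a change of rhythm. Time as 6 levels called 574 genes for a change of rhythm and adjustment over rhythmic genes 444. By the cosine F test 1 member was rhythmic in control mice, and 1 by q, where q left 5013 genes in control and 1347 in Bmal1IEC-/- mice.

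Leaving out each mouse in turn, members past both thresholds ranged from 0 to 1 (Cfd without SV481), members by the adjusted p from 1 to 2 (C3 without SV415, SV396, SV439, SV448 or SV437, Cfd without SV481), members in the day from 1 to 3 (C3 and Cfd without SV439), members in the interaction from 0 to 1 (Hc without SV420, SV421 or SV439) and all genes there from 9 to 42. All genes at CT1 ranged from 575 (without SV385) to 2313, rhythmic members from 1 to 4 in control and from 0 to 1 in Bmal1IEC-/- mice (Cd55 without SV470 or SV471), members with a change of rhythm from 0 to 1 and all genes from 176 (without SV385) to 394. The Hc change was lost without SV455, SV468, SV469, SV447, SV396, SV397, SV424, SV398, SV384, SV385, SV480, SV440, SV448, SV449, SV450, SV399 or SV481. Colec10 lost its adjusted p without SV454, SV455, SV421, SV453, SV439, SV400, SV450 or SV470, and the rhythm of C1qa in control mice was lost without SV454, SV455, SV468, SV469, SV442, SV446, SV447, SV412, SV424, SV417, SV438, SV441 or SV476. C3ar1 lost its CT1 call without SV454, SV455, SV468, SV469, SV384 or SV385, C1ra without SV454, SV455, SV468, SV469, SV385, SV479 or SV480, C7 without SV469 or SV385 and Colec12 without SV454, SV455 or SV385. C1qc or C3 became rhythmic in control mice without SV398, SV453 or SV433, and without SV424.

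The genotype differences of the C1q genes changed sign. Without single mice C1qa ranged from -0.045 to 0.035, C1qb from -0.065 to 0.011 and C1qc from -0.055 to 0.037. C1qa was 0.00072 with no filter, and C1qc 0.0016 in DESeq2 and 0.0021 with no filter. The cause was not tested in any of these cases. At this depth Hc and Cfi rest on few reads. The CT1 leave-outs, the fits with time as 6 levels without mice, and the cosine fits without the pair were chosen after seeing the data.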
